A study of Mus musculus with 54 samples.

Results

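The enzymes that split glucose into pyruvate and burn pyruvate in mitochondria were followed in the S3 segment, the last part of the kidney proximal tubule, in diabetic and nondiabetic mice. The set holds 36 genes that were chosen by name from 19068 rows of the table: 3 hexokinases, 6 genes of upper glycolysis, 5 of lower glycolysis, 3 lactate dehydrogenases, the 2 subunits of the mitochondrial pyruvate carrier, 4 pyruvate dehydrogenase genes and 13 genes of the citric acid cycle and the isocitrate dehydrogenases. All 36 had a row. Aldoa had a second row under another identifier, with a mean of 0.773 TPM, which was left out in favour of the row with a mean of 450.9 TPM. A level in TPM (transcripts per 1000000) is corrected for gene length, so levels can be set side by side between genes.

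All mice were male DBA animals of 14 weeks. They were nondiabetic (Ins2+/+) or heterozygous for the Akita allele (Ins2 Akita/+), a mutant insulin gene that makes beta cells fail and gives insulin-deficient diabetes. Both were wild type or knockout for Sglt1, the glucose transporter of the S3 segment encoded by Slc5a1. For 2 weeks each of these 4 kinds of mice received vehicle or dapagliflozin, an inhibitor of the transporter SGLT2 (10 mg per kg of diet), and Akita wild-type mice in a further group received semaglutide, an agonist of the GLP-1 receptor (3 nmol per kg per day). Laser capture took 70 to 80 tubules for each sample, chosen by staining with the lectin LTL and the absence of SGLT2. The 9 groups had 6 libraries each, except 5 for Akita wild type on dapagliflozin and 5 for Akita wild type on semaglutide. The labels do not say that each library is a different mouse, so p-values measure the spread between these libraries.

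Glycolysis turns glucose into pyruvate in the cytosol. Lactate dehydrogenases interconvert pyruvate and lactate, the carrier Mpc1-Mpc2 brings pyruvate into mitochondria, pyruvate dehydrogenase makes acetyl-CoA from it, and the citric acid cycle oxidises acetyl-CoA. Proximal tubule cells live mainly on the oxidation of fatty acids, lactate and glutamine, carry out gluconeogenesis, and are known for low glycolytic flux.

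Markers of S3 (Slc7a13, Cyp7b1, Atp11a and others) were present in every library, with a summed level of 2689 to 9285 TPM. Slc5a1 was at 0.151 to 1.34 TPM in the knockout libraries and at 27.3 TPM or more in the others, as labelled. RNA of other cells was present as well: Umod, of the thick ascending limb, was at 115.7 to 1615 TPM, and Slc5a2, which encodes SGLT2, at 3.93 to 205.1 TPM. In bulk libraries a lower share of a cell type and less RNA per cell cannot be told apart. A score of other cell types (the mean log2(TPM + 1) of 47 markers) ranged from 2.42 to 4.01. Replicates 1 and 2 of the nondiabetic wild-type vehicle group and replicate 3 of the nondiabetic knockout dapagliflozin group lay farthest out on the first principal component, with scores of 4.01, 3.74 and 3.43. The main results that rest on them are given with and without them.

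Promoters of 3 glycolytic members are shown because these genes have some of the largest diabetes values described further on. Their promoters also differ in ACGTG, a form of a motif known from glycolytic genes. Each is the 250 bases before the RefSeq start (GRCm38.p6), 5′ to 3′ on the gene's strand, with every ACGTG and its complement CACGT in capitals, searched on both strands. ACGTG is a form of the core read by hypoxia-inducible factors. GCGTG, the other form of that core, was not searched and is not marked. CACGTG, which contains both ACGTG and CACGT, is the E-box read by the factors USF and MYC. The windows lie at chr4:150236458-150236707 for Eno1, chrX:106186850-106187099 for Pgk1 and chr7:46845554-46845803 for Ldha, all on the plus strand, and 0 of their bases are in exons of GENCODE vM21.
Eno1: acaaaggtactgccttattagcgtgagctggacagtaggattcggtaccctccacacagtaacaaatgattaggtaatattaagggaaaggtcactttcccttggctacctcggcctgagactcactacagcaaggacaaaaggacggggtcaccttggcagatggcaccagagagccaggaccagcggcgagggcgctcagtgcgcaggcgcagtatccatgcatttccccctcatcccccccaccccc
Pgk1: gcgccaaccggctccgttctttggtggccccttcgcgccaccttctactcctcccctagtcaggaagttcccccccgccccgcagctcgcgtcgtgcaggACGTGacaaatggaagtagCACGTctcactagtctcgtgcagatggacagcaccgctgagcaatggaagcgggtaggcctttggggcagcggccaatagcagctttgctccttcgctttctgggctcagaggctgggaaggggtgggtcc
Ldha: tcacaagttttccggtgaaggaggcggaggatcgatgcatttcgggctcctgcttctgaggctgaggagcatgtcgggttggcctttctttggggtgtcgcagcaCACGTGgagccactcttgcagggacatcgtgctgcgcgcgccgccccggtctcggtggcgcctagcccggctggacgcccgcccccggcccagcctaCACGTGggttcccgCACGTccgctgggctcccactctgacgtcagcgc
The Pgk1 window held 2 matches to ACGTG or its complement, and the Ldha window held CACGTG 2 times and 1 further CACGT. The Eno1 window held 0 matches to ACGTG or its complement, as did the windows of its other 2 listed starts. It does hold GCGTG, so these 0 matches do not mean that the Eno1 window lacks the core. Ldha has 2 listed starts, and the motif was in the window of 1 of them. Over the first listed start of each gene, 10 of the 35 members with a promoter (28.6%) had ACGTG or its complement, against 16.6% of 27025 genes. These 10 were Hk2, Hk3, Pfkm, Pgk1, Pgam1, Ldha, Ldhd, Pdhb, Idh3g and Ogdh. CACGTG was in 3 of the 35 (8.57%), Ldha, Ldhd and Pfkm, against 6.05% of all genes. A match is a description of letters, not evidence of binding.

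The highest member was Ldhd, the mitochondrial enzyme that oxidises D-lactate, with a mean of 1092 TPM over the 52 libraries and a range of 545.3 to 1697. Next came Gapdh at 762.3 TPM, Aldoa at 450.9, Eno1 at 317.6, Tpi1 at 313.9, Ldhb at 312.3 and Dlst at 296.1. Within-group spread was near 20% of the mean for most of these. The means of Eno1, Tpi1 and Ldhb differ by less than this spread of single libraries, which does not measure the error of a mean. The order of these genes was not tested. The lowest were Hk2 at 0.955 TPM and Hk3 at 0.298 TPM, which were listed at 0 in 3 and 15 libraries and fell under the limit of a mean of 1 TPM for testing. The other 34 members passed it, through their mean over all libraries. Summed by role, the 13 genes of the citric acid cycle and the isocitrate dehydrogenases took 28.9% of the members' TPM. This role includes the cytosolic Aco1 and Idh1 and the NADP-dependent Idh2. The lactate dehydrogenases took 23.9%, lower glycolysis 21.0%, upper glycolysis 14.7%, pyruvate dehydrogenase 6.04%, the pyruvate carrier 4.65% and the hexokinases 0.784%.

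The other members lay between these ends. In upper glycolysis Gpi1, which makes fructose 6-phosphate, had a mean of 180.8 TPM, and in lower glycolysis Pgk1 had 144.6, Pgam1 132.1 and Pkm 118.9 TPM. Ldha was at 268.3 TPM. Of the pyruvate carrier, Mpc2 had a mean of 200.7 TPM (81.7 to 431.5) and Mpc1 126.2 TPM. Of pyruvate dehydrogenase, the E1 subunit Pdha1 was highest at 184.8 TPM (111.7 to 266.9), above Dld at 118.5, Pdhb at 71.8 and Dlat at 47.5 TPM. Among the citric acid cycle genes and isocitrate dehydrogenases, Dlst was followed by Idh2 at 261.0, Ogdh at 254.8 and Idh3b at 240.5 TPM. Aco1 at 203.3, Suclg1 at 189.4 and Idh3g at 136.5 TPM came next. The lower members of this role, between 51.7 and 84.6 TPM, were Sucla2, Idh1, Suclg2, Cs, Fh1 and Idh3a.

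**Figure D1:**
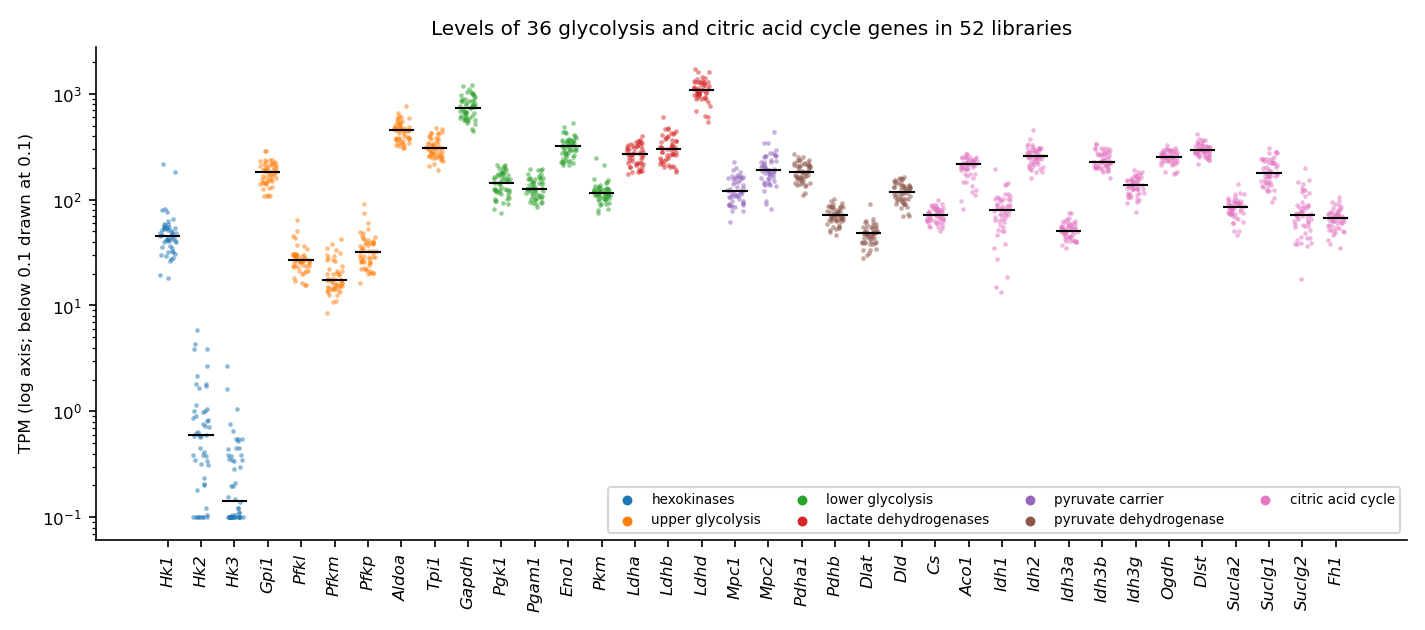
Levels of the 36 genes in TPM on a log axis, 1 point per library (52) and a black bar at the median, coloured by role. Ldhd and Gapdh sit highest, the phosphofructokinases and Hk1 near the bottom of the tested genes, and Hk2 and Hk3 below them.

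Each gene of hexokinase and phosphofructokinase, the steps that commit glucose to glycolysis, had a lower mean RNA level than the other glycolytic members. Hk1, which phosphorylates glucose, made up 97.5% ± 2.58 (SD, n = 52) of the summed hexokinase TPM. Its mean of 51.5 TPM was far under that of Aldoa. Phosphofructokinase, the main control point of glycolysis, was present as all 3 isozymes: Pfkp took 41.6% ± 8.44, Pfkl 34.4% ± 6.76 and Pfkm 24.0% ± 6.83 (SD, n = 52) of their sum. Hkdc1, a hexokinase-like gene outside the set, had a mean of 0.297 TPM. Pklr, the liver type of pyruvate kinase, had a mean of 73.0 TPM, 0.631 ± 0.296 (SD, n = 52) times Pkm. Ldha and Ldhb were near each other, at a ratio of 0.899 ± 0.218 (SD, n = 52).

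Members differed in how tightly libraries of 1 group lay together. The median within-group coefficient of variation was 20.6% over the 34 tested members and 31.0% over all 15424 tested genes. Dlst, a subunit of 2-oxoglutarate dehydrogenase, was tightest at 12.6%, followed by Ogdh at 13.5% and Cs, citrate synthase, at 14.1%. Suclg2, the subunit of succinyl-CoA ligase that makes it GTP-specific, was widest at 43.3%, followed by Hk1 at 40.8% and Idh1, the cytosolic NADP-dependent isocitrate dehydrogenase, at 38.3%. Idh1 ran from 13.4 to 196.5 TPM, both within the 6 nondiabetic wild-type dapagliflozin libraries.

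Part of this spread moved with RNA of other cells. Within groups, 12 of the 34 members fell with the score of other cell types and 2 rose with it in a limma fit made after the data were seen (adjusted p under 0.05), where 20.1% of all genes passed in either direction. The falling members (35.3%, against 12.6% of all genes) were led by Ldhd (log2 slope -0.72 per score unit, SE 0.15, adjusted p = 0.000596), Tpi1 (-0.59, SE 0.13, adjusted p = 0.000879) and Mpc2 (-0.94, SE 0.21, adjusted p = 0.00123). The rising ones were Hk1 (0.86, SE 0.25, adjusted p = 0.0124) and Suclg2 (0.91, SE 0.31, adjusted p = 0.0296). Hk1 was at 183.9 TPM in replicate 2 of the nondiabetic wild-type vehicle group and at 215.2 TPM in replicate 3 of the nondiabetic knockout dapagliflozin group, against 82.3 TPM or less in every other library. Ldhd was at 599.3 and 545.3 TPM in the same pair, the lowest 2 values of all. The library with the highest score, nondiabetic wild-type vehicle replicate 1 (4.01), was at 63.0 TPM for Hk1 and 932.9 TPM for Ldhd. Nondiabetic knockout vehicle replicate 1 (3.51) was at 82.3 and 1014 TPM. Eno1 had a slope of -0.11 (SE 0.14, adjusted p = 0.628). The score of other cell types holds no markers of the S1 and S2 segments. A like score of S1 and S2 markers was 4.24 in the library highest for Suclg2 (nondiabetic wild-type dapagliflozin replicate 4, 197.4 TPM). It was 2.44 in the lowest (nondiabetic wild-type vehicle replicate 6, 17.6 TPM). Every library with Suclg2 at 107.3 TPM or more had an S1 and S2 score of 4.24 or more. The median of that score over the 52 libraries was 3.11. Not every high score went with high Suclg2. In Akita knockout vehicle replicate 1 the score was 6.2, with Suclg2 at 88.3 TPM. In Akita wild-type dapagliflozin replicate 4 it was 4.28, with Suclg2 at 38.6 TPM. Whether Suclg2 moves with that score was not tested.

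**Figure D2:**
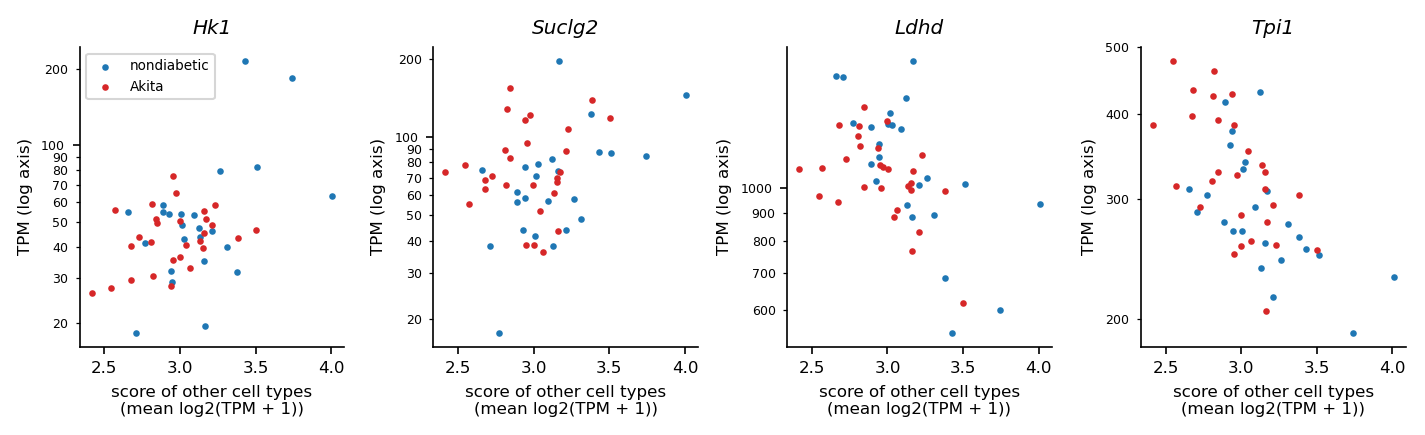
Level of Hk1, Suclg2, Ldhd and Tpi1 (TPM, log axis) against the score of other cell types (mean log2(TPM + 1) of 47 markers), 1 point per library, nondiabetic in blue and Akita in red. Hk1 is highest and Ldhd lowest in 2 libraries with scores of 3.74 and 3.43. The library of the highest score, 4.01, has Hk1 at 63.0 and Ldhd at 932.9 TPM.

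Diabetes was first compared in untreated wild-type mice, 6 Akita against 6 nondiabetic libraries. Of the 5 genes of lower glycolysis 4 had values above 0 (higher in Akita), by amounts that did not pass the test. Eno1, the enolase of most tissues (chr4:150236721-150248879, plus strand, protein coding), had a lowest, median and highest level of 229.6, 272.1 and 326.4 TPM in nondiabetic and 315.7, 410.2 and 526.1 TPM in Akita libraries. All 6 Akita libraries were above the nondiabetic median and 4 of 6 above the nondiabetic highest, and the groups overlapped. The log2 difference was 0.58 (SE 0.15, 95% interval 0.27 to 0.88), with an adjusted p of 0.0751 by limma with Benjamini-Hochberg adjustment over all tested genes. Without the 3 outlying libraries the Eno1 value was 0.62 (SE 0.17, adjusted p = 0.127), adjusted for the sum of TPM 0.42 (adjusted p = 0.574), and with each library rescaled to its genes outside the mitochondrial genome 0.33 (adjusted p = 0.381).

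Gapdh, which makes NADH in glycolysis, had a lowest, median and highest level of 445.5, 649.8 and 996.3 TPM in nondiabetic and 751.1, 901.9 and 1184 TPM in Akita libraries. The groups overlapped, and the log2 difference was 0.55 (SE 0.19, adjusted p = 0.244). For Gapdh it was 0.30 (adjusted p = 0.496) after that rescaling and 0.25 (adjusted p = 0.915) adjusted for the sum of TPM. Pgk1 (log2 difference 0.47, adjusted p = 0.415), Pgam1 (0.43, adjusted p = 0.352) and Tpi1 (0.38, adjusted p = 0.418) stood next. Without the outlying libraries the differences were smaller for Gapdh (0.43), Pgk1 (0.32), Pgam1 (0.29) and Tpi1 (0.19). Pkm, which ends the pathway, had medians of 119.0 and 121.5 TPM.

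Hk1 had the lowest value of the members in the same comparison. Its lowest, median and highest level was 41.2, 60.5 and 183.9 TPM in nondiabetic and 27.4, 39.9 and 58.2 TPM in Akita libraries. The log2 difference was -0.82 (SE 0.31, adjusted p = 0.316). Without the 3 outlying libraries it was -0.52, without the highest nondiabetic one alone -0.55, and adjusted for the sum of TPM -0.55. Idh2, the mitochondrial NADP-dependent isocitrate dehydrogenase, had medians of 288.6 and 248.5 TPM and a log2 difference of -0.20 (SE 0.16, adjusted p = 0.721), which was -0.44 (adjusted p = 0.381) after the rescaling and -0.13 without nondiabetic wild-type vehicle replicate 2.

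Over the list, 0 of 34 members passed in untreated wild-type mice, where 0.389% of all tested genes did. Of the 34, 28 (82.4%) were above 0 with a median log2 difference of 0.182, against 56.4% and 0.045 for all tested genes. The median was 0.470 for the 5 genes of lower glycolysis, 0.141 for upper glycolysis and 0.200 for the lactate dehydrogenases. It was 0.240 for the pyruvate carrier, 0.183 for pyruvate dehydrogenase and 0.143 for the citric acid cycle with the isocitrate dehydrogenases. At an unadjusted p under 0.05 there were 6 of 34 members (17.6%) and 10.2% of all genes. Without the outlying libraries there were 3 of 34 (8.82%), beside 8.27% of all genes. These levels depend on the scale. When each library was rescaled to the sum of its genes without the mitochondrial genome, the median of all genes was -0.170 and that of 35 members was -0.074, with 13 of 35 above 0. Relative to all genes the members' median was 0.096 above, where it had been 0.137 above. Library sums were 1858000 ± 250700 TPM (SD, n = 6) in the Akita wild-type vehicle libraries and 1422000 ± 323300 TPM (SD, n = 6) in the nondiabetic ones. As a share of that sum the members were lower in Akita, at 0.411% ± 0.033 against 0.490% ± 0.082 (SD, n = 6 each). The Akita wild-type vehicle libraries had 40.1% ± 5.91 (SD, n = 6) of their TPM in mitochondrial ribosomal RNA and the nondiabetic ones 33.4% ± 6.57 (SD, n = 6). The scores of other cell types were 2.93 ± 0.27 and 3.22 ± 0.551 (SD, n = 6 each). With either as a covariate 0 members passed for this comparison, as in the main fit, so that count cannot show an effect of either. The Eno1 difference was 0.54 with the percent of mitochondrial rRNA and 0.55 with the score, beside 0.58 in the main fit.

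Averaged over genotype and treatment, diabetes gave the 1 call of the list. Eno1 was higher in the 23 Akita libraries on vehicle or dapagliflozin, with a lowest, median and highest level of 221.2, 350.9 and 526.1 TPM, than in the 24 nondiabetic libraries, with 213, 284.9 and 375.1 TPM. The means were 357.1 ± 74.5 (SD, n = 23) and 290.1 ± 50.3 (SD, n = 24). Of the Akita libraries, 20 of 23 were above the nondiabetic median and 8 above the nondiabetic highest, so the groups overlapped widely. The log2 difference was 0.29 (SE 0.08, 95% interval 0.13 to 0.44), a 1.22-fold change on the log2(TPM + 1) scale, with an adjusted p of 0.0490 by limma. The call stood at the edge of the threshold. The difference stayed between 0.23 and 0.31 under 12 alternatives, while the adjusted p ran from 0.0339 to 0.186 and was over 0.05 in 9 of them. Without the 3 outlying libraries the Eno1 difference was 0.31 (adjusted p = 0.0680), and in turn without each of the 47 libraries compared it was 0.26 to 0.32 (adjusted p 0.0190 to 0.0883, over 0.05 in 31 of 47).

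By group, the Eno1 medians from low to high were 243.2 TPM in nondiabetic knockout vehicle, 250.2 in Akita wild-type semaglutide, 272.1 in nondiabetic wild-type vehicle, 319.1 in Akita knockout dapagliflozin, 321.5 in nondiabetic knockout dapagliflozin, 340.0 in nondiabetic wild-type dapagliflozin, 345.3 in Akita knockout vehicle, 364.9 in Akita wild-type dapagliflozin and 410.2 in Akita wild-type vehicle. Standard deviations of single libraries within groups were 30.8 to 83.8 TPM, which do not measure the error of a median. The order of the medians is a description and was not itself tested. The diabetes difference of Eno1 was 0.58 in wild type on vehicle, 0.40 in knockout on vehicle (SE 0.15, adjusted p = 0.697), 0.16 in wild type on dapagliflozin (SE 0.16) and 0.02 in knockout on dapagliflozin (SE 0.15), the last 2 with an adjusted p that rounds to 1. No member passed in any of these, where 0%, 0.00648% and 0% of all genes passed in the last 3, and 4, 1 and 0 of 34 members had an unadjusted p under 0.05, beside 6.65%, 3.46% and 5.12% of all genes.

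**Figure D3:**
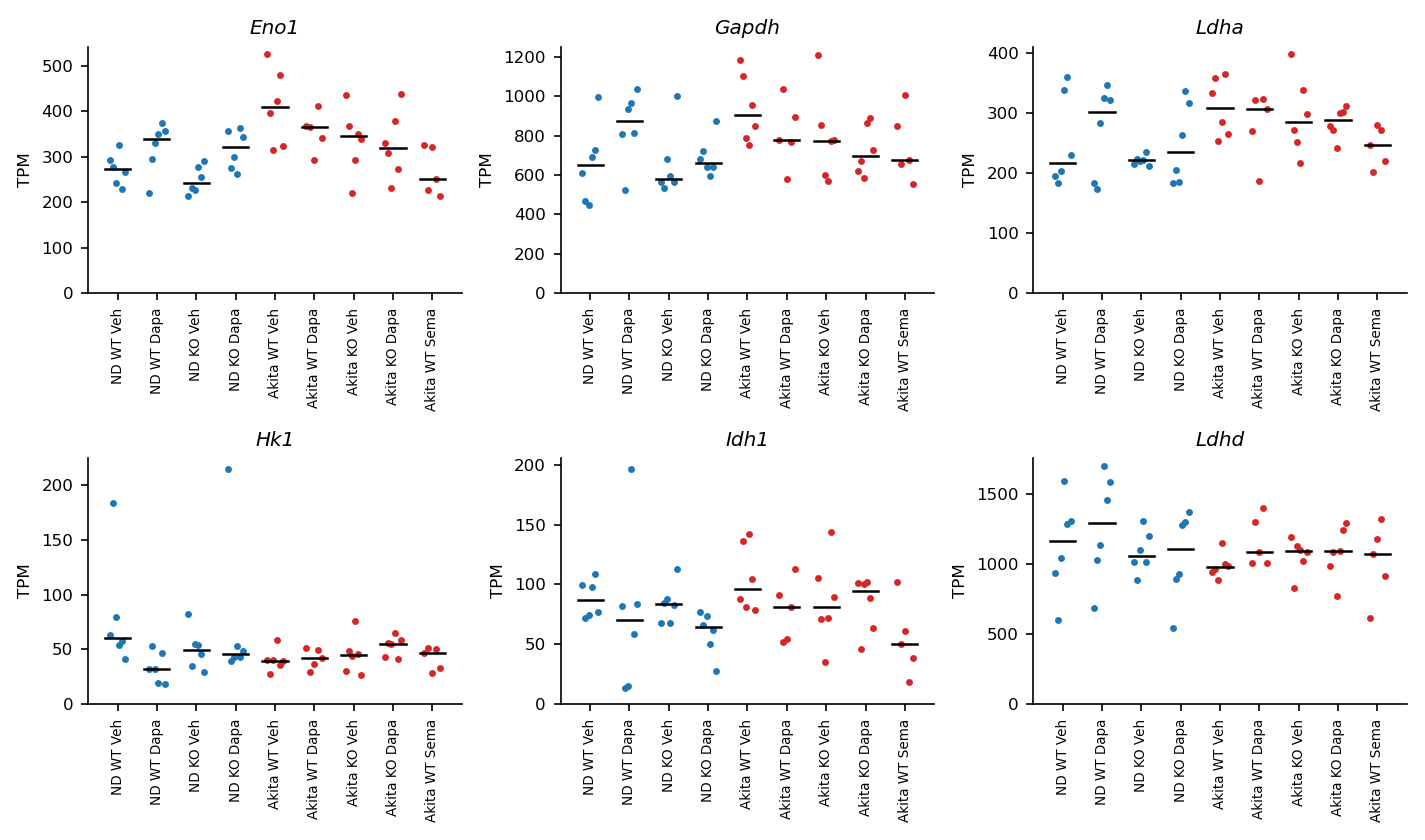
Levels in TPM of 6 members in the 9 groups, 1 point per library and a black bar at the group median, nondiabetic (ND) in blue and Akita in red; WT is wild type, KO Sglt1 knockout, Veh vehicle, Dapa dapagliflozin and Sema semaglutide. Eno1 has its highest median in Akita wild type on vehicle (410.2 TPM) and 250.2 TPM with semaglutide, and single high libraries stand out for Hk1.

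Ldha, the lactate dehydrogenase subunit of glycolytic tissues, came next in the averaged comparison. Its lowest, median and highest level was 174.3, 223.0 and 360.3 TPM in nondiabetic and 187.5, 298.4 and 399.4 TPM in Akita libraries. The log2 difference was 0.26 (SE 0.09), the adjusted p of 0.167 missed the threshold, and 21 of 23 Akita libraries were above the nondiabetic median. Adjusted for the score of other cell types the Ldha value was 0.16 (adjusted p = 0.638). Tpi1 (0.22, adjusted p = 0.224), Suclg1, the shared subunit of succinyl-CoA ligase (0.30, adjusted p = 0.224), Pgk1 (0.27, adjusted p = 0.237) and Idh3a, the catalytic subunit of the NAD-dependent isocitrate dehydrogenase (0.17, adjusted p = 0.257), followed. Aldoa had medians of 403.0 TPM in nondiabetic and 477.5 in Akita libraries (0.20, SE 0.09, adjusted p = 0.302), and Pdha1 159.7 and 206.3 TPM (0.20, SE 0.09, adjusted p = 0.283). Mpc2 (0.09, SE 0.14) and Dlst (0.05, SE 0.06), the highest of the pyruvate carrier and of the cycle, were nearer to 0. The 2 members with the smallest p among the 3 below 0 were Hk1, at -0.19 (SE 0.16, adjusted p = 0.637) or -0.02 without the 3 outlying libraries and -0.10 without nondiabetic knockout dapagliflozin replicate 3 alone, and Ldhd, at -0.04 (SE 0.10, adjusted p = 0.899).

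For the whole list, 1 of 34 members passed in the averaged comparison, where 0.966% of all tested genes did. This share of 1 in 34 rests on a single gene near the threshold. Of the 34, 31 (91.2%) were above 0 with a median of 0.142, against 56.5% and 0.027 for all genes. At an unadjusted p under 0.05 there were 9 of 34 (26.5%) and 13.4% of all genes. Without the outlying libraries there were 6 of 34 (17.6%), beside 9.85% of all genes. Rescaled without the mitochondrial genome, 27 of 35 were above 0 with a median of 0.086, where the median of all genes was -0.022. The score of other cell types was lower in all 4 Akita groups on vehicle or dapagliflozin (means 2.88 to 2.95) than in the 4 nondiabetic groups (3.04 to 3.22). With that score as a covariate 0 members passed.

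**Figure D4:**
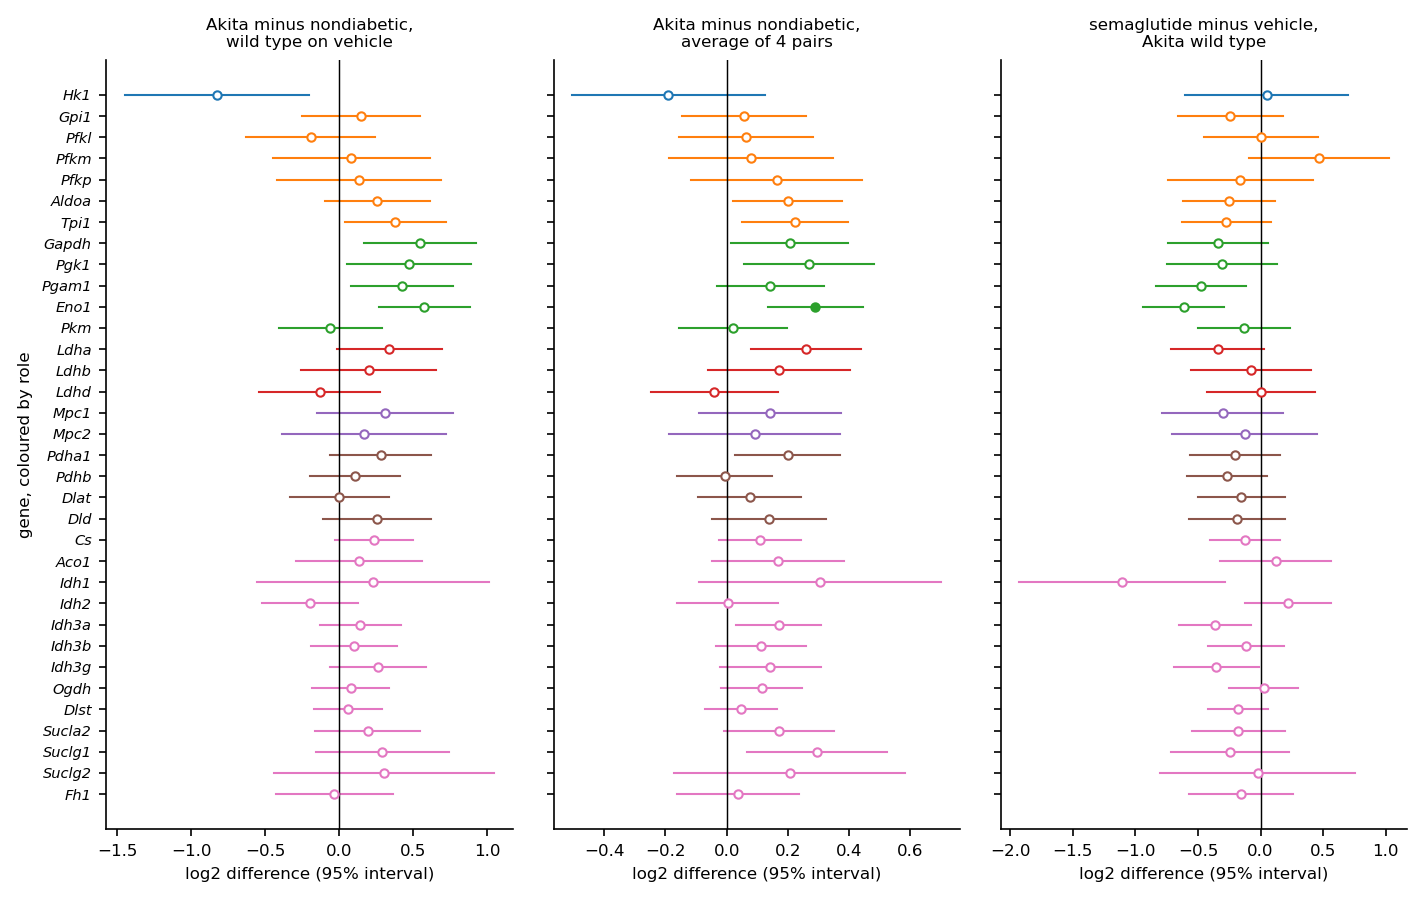
Log2 differences of the 34 tested members with 95% intervals in 3 comparisons, coloured by role, on the log2(TPM + 1) scale; each panel has its own horizontal axis and filled points passed at an adjusted p under 0.05. Eno1 in the averaged comparison, at 0.29, is the only filled point.

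Among genes of the same routes outside the set, Pklr and Acly rose with diabetes. They come from lists written with earlier results known: other isozymes and regulators of glycolysis, regulators of pyruvate dehydrogenase, other citric acid cycle and anaplerotic enzymes, and gluconeogenesis. In untreated wild-type mice Pklr passed, and averaged over the groups both did. In the other 5 main comparisons 0 genes of these lists passed.

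Pklr was the clearest. In untreated wild-type mice its lowest, median and highest level was 13.1, 45.4 and 122.3 TPM in nondiabetic and 69.2, 122.0 and 162.4 TPM in Akita libraries, a log2 difference of 1.37 (SE 0.31, adjusted p = 0.0202). In the averaged comparison Pklr rose from a mean of 49.3 ± 25.1 (SD, n = 24) to 99.7 ± 29.9 TPM (SD, n = 23), a log2 difference of 1.10 (SE 0.16, adjusted p = 2.24e-05), and 23 of 23 Akita libraries were above the nondiabetic median. In knockout mice on vehicle the Pklr levels of Akita (54.1 to 119.1 TPM) and nondiabetic libraries (21.0 to 41.3 TPM) did not overlap, in a comparison where 0% of all genes passed and the groups did not overlap for 0.415% of them. Galm, a sugar mutarotase, also had groups apart there (34.3 to 58.2 against 24.6 to 32.9 TPM). The averaged Pklr call held without the 3 outlying libraries (0.95, adjusted p = 7.98e-05) and after rescaling without the mitochondrial genome (1.04, adjusted p = 3.06e-05); the call in untreated wild-type mice did not (0.91, adjusted p = 0.285, and 1.13, adjusted p = 0.0914).

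Acly, which turns cytosolic citrate into acetyl-CoA for lipid synthesis, rose in the averaged comparison from a mean of 101.7 ± 25.9 (SD, n = 24) to 128.9 ± 26.0 TPM (SD, n = 23), a log2 difference of 0.35 (SE 0.09, adjusted p = 0.0485). That Acly call was lost without the 3 outlying libraries (adjusted p = 0.190) and under both other scalings (adjusted p = 0.0526 and 0.171).

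Ratios within a library do not depend on its scale. The ratio of Pklr to Pkm was 0.441 ± 0.234 (SD, n = 24) in nondiabetic and 0.838 ± 0.221 (SD, n = 23) in Akita libraries on vehicle or dapagliflozin. It was 0.593 ± 0.268 (SD, n = 5) with semaglutide. The ratio of Ldhd to the sum of Ldha and Ldhb was 2.13 ± 0.492 (SD, n = 24) in nondiabetic and 1.77 ± 0.396 (SD, n = 23) in Akita libraries. These means differ by less than the SD of single libraries, which does not measure the error of a mean. The ratio of Ldha to Ldhb was 0.896 ± 0.247 (SD, n = 24) in nondiabetic and 0.936 ± 0.192 (SD, n = 23) in Akita libraries, also a difference smaller than the SD of single libraries. These ratios are descriptions and were not tested.

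**Figure D5:**
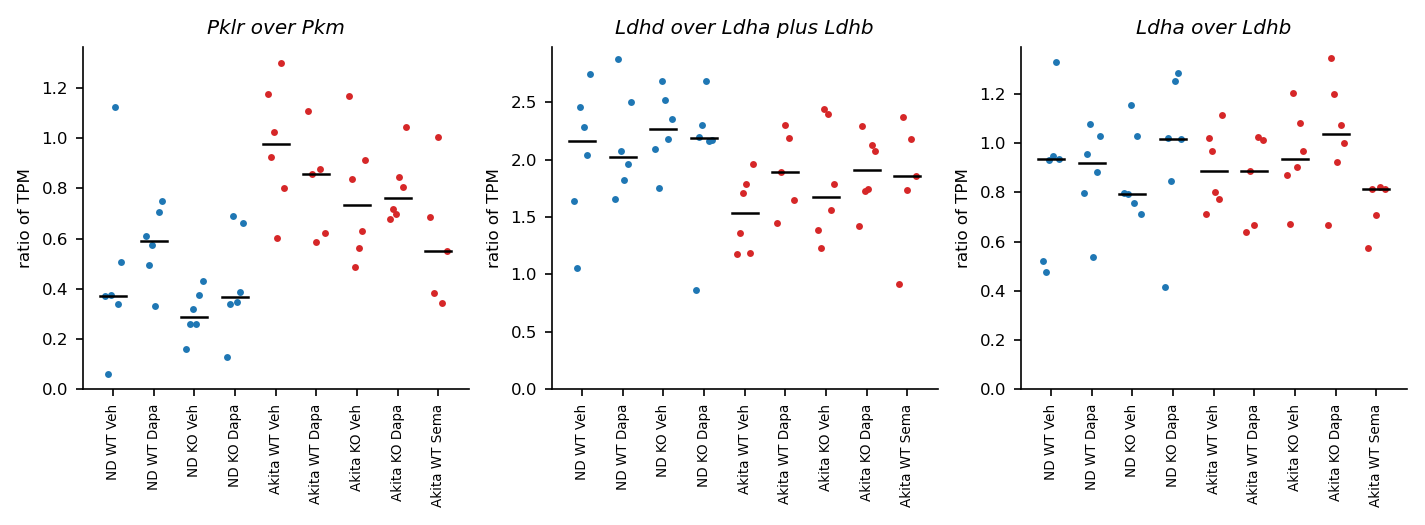
Ratios of isozyme levels (TPM over TPM) in the 9 groups, 1 point per library and a black bar at the median, nondiabetic (ND) in blue and Akita in red; WT is wild type, KO Sglt1 knockout, Veh vehicle, Dapa dapagliflozin and Sema semaglutide. Pklr over Pkm has a mean of 0.441 in nondiabetic and 0.838 in Akita libraries on vehicle or dapagliflozin, while Ldha over Ldhb stays near 0.9 in both.

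Semaglutide was compared with vehicle in Akita wild-type mice, 5 against 6 libraries, and no member passed, as 0% of all tested genes did. Each semaglutide library had a higher number in its title than any of the vehicle libraries. Differences that go with the drug and with library number therefore cannot be told apart here. Eno1 was at 326.3, 227.5, 320.7, 250.2 and 212.9 TPM in the semaglutide libraries, all 5 under the vehicle median of 410.2 TPM and 3 under the vehicle lowest of 315.7. The Eno1 difference was -0.62 (SE 0.16, 95% interval -0.94 to -0.29), with an adjusted p of 0.357 and an unadjusted p of 0.000347. Rescaled without the mitochondrial genome it was -0.37 (adjusted p = 0.457). The vehicle libraries are the same that were high in the diabetes comparison, so the 2 differences share their samples. Idh1 was at 101.8, 50.5, 60.8, 18.6 and 38.3 TPM with semaglutide and at 78.7, 96.2 and 141.9 TPM (lowest, median and highest) on vehicle. The Idh1 difference was -1.11 (SE 0.41, adjusted p = 0.766).

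Idh3a was at 48.8, 45.0, 49.1, 44.8 and 35.2 TPM with semaglutide and at 50.6 to 74.2 TPM on vehicle, without overlap. Groups without overlap were seen for 0.746% of all tested genes in this comparison. The Idh3a difference was -0.37 (SE 0.14, adjusted p = 0.844). Pfkm, at 29.0, 31.3, 13.6, 14.4 and 33.5 TPM with semaglutide against a vehicle range of 13.5 to 19.7 TPM, had 3 libraries above that range and 2 within it (difference 0.47, SE 0.28, adjusted p = 0.983). The Pfkm value was 0.71 after the rescaling, also 0.71 with the library number as a covariate, and 0.30 adjusted for the sum of TPM. Idh2 was at 327.7, 282.1, 300.3, 304.5 and 279.3 TPM with semaglutide and at 209.1 to 337 TPM on vehicle (difference 0.22, adjusted p = 0.998, or 0.47 and 0.465 after the rescaling).

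With semaglutide 7 of 34 members were above 0, and the median was -0.179, against -0.008 for all genes; the 5 genes of lower glycolysis were all below 0 with a median of -0.339. Rescaled without the mitochondrial genome, the median of all genes moved to 0.214 and that of the members to 0.069, with 22 of 35 above 0, which is 0.145 under all genes where it had been 0.171 under. Library sums were 1513000 ± 449400 TPM (SD, n = 5) with semaglutide and 1858000 ± 250700 TPM (SD, n = 6) on vehicle. The members' share of that sum was 0.461% ± 0.087 and 0.411% ± 0.033. At an unadjusted p under 0.05 there were 5 of 34 members (14.7%), beside 5.19% of all genes. Among the other genes of the pathway, Pklr (log2 difference -0.90, adjusted p = 0.766) and Acly (-0.58, adjusted p = 0.689) were below 0, and all 5 semaglutide libraries were under the vehicle median for each. Semaglutide against dapagliflozin gave an Eno1 difference of -0.42 (SE 0.17, unadjusted p = 0.0148), where 0% of all genes and 0 members passed and 2 members had an unadjusted p under 0.05, beside 3.52% of all genes.

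Dapagliflozin, averaged over the 4 kinds of mice, left the members without a call, as it did all tested genes (0%). Of the 34, 17 were above 0 and 17 below, with a median of 0 to 2 decimals. The smallest p belonged to Idh1, whose lowest, median and highest level was 13.4, 73.4 and 196.5 TPM in the 23 dapagliflozin libraries and 35, 86.4 and 143.4 TPM in the 24 vehicle libraries. The log2 difference was -0.43 (SE 0.20, 95% interval -0.83 to -0.04, adjusted p = 0.999). Idh3g, a regulatory subunit of the NAD-dependent enzyme, had a difference of -0.10 (SE 0.08), or -0.06 without nondiabetic wild-type dapagliflozin replicate 2, Pfkm 0.15 (SE 0.13) and Eno1 0.09 (SE 0.08, 95% interval -0.07 to 0.24). Hk1 was lower with dapagliflozin in nondiabetic wild-type mice, at 18.3, 31.98 and 53.5 TPM (lowest, median and highest) against 41.2, 60.5 and 183.9 TPM on vehicle. That Hk1 difference was -1.14 (SE 0.31, unadjusted p = 0.000562, adjusted p = 0.394), where 0.00648% of all genes passed. The vehicle group holds 2 of the 3 outlying libraries, one of them the highest for Hk1. Without the 3 outlying libraries the difference was -0.84 (SE 0.26, unadjusted p = 0.00252, adjusted p = 0.404). The other 4 vehicle libraries were at 79.4, 54.5, 58.0 and 41.2 TPM for Hk1. In nondiabetic knockout, Akita wild-type and Akita knockout mice 0% of all genes passed with dapagliflozin, and 1, 0 and 0 members had an unadjusted p under 0.05, beside 4.74%, 2.39% and 3.13% of all genes.

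Whether dapagliflozin changed the diabetes difference was tested as an interaction, where 0 members and 0.00648% of all genes passed. Of lower glycolysis 4 of 5 values were below 0, among them Eno1 -0.40 (SE 0.15, unadjusted p = 0.0127), Gapdh -0.40 (SE 0.19, unadjusted p = 0.0391) and Pgam1 -0.32 (SE 0.17), with an adjusted p of 0.979 for each. After rescaling without the mitochondrial genome Eno1 was at -0.15 and Gapdh at -0.15, and adjusted for the sum of TPM they were at -0.23 and -0.09. Hk1 (0.60, SE 0.31) and Idh1 (0.44, SE 0.39) were the members with the smallest p above 0. Adjusted for the sum of TPM Hk1 was at 0.30. Idh1 was at 0.70 after the rescaling, 0.26 without nondiabetic wild-type dapagliflozin replicate 2 and 0.28 without replicate 3 of that group. The median over the 34 members was -0.086, and rescaled without the mitochondrial genome it was 0.166, beside 0.220 for all genes.

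Loss of Sglt1, averaged over the 4 pairs of groups, gave 0 calls among the members, where 0.0519% of all tested genes passed. The members were mostly lower by small amounts: 6 of 34 were above 0, with a median of -0.095 against 0.002 for all genes, and 0 had an unadjusted p under 0.05, beside 7.22% of all genes. Without the 3 outlying libraries 5 of 34 (14.7%) did, beside 9.44% of all genes. Rescaled without the mitochondrial genome the median was 0.010, with 19 of 35 above 0, beside 0.097 for all genes. Dlat, the acetyltransferase of pyruvate dehydrogenase, had a lowest, median and highest level of 28.2, 46.5 and 58.1 TPM in the 24 knockout libraries and 31.6, 48.9 and 90.03 TPM in the 23 wild-type libraries on vehicle or dapagliflozin (log2 difference -0.17, SE 0.08, adjusted p = 0.690). Idh3b, another subunit of the NAD-dependent enzyme, had medians of 223.0 and 265.5 TPM (difference -0.14, SE 0.07, adjusted p = 0.692). Aco1, the cytosolic aconitase that also acts as an iron sensor, was at 0.09 (SE 0.11), and Hk1 at 0.20 (SE 0.16, adjusted p = 0.815). Without nondiabetic knockout dapagliflozin replicate 3, the library highest for Hk1, Hk1 was at 0.11 and Aco1 at 0.15. Without nondiabetic wild-type vehicle replicate 2 Aco1 was at 0.05, and without nondiabetic knockout dapagliflozin replicate 6 at 0.06. Adjusted for the sum of TPM Hk1 was at 0.05 and Idh3b at -0.06, and with the percent of mitochondrial rRNA Aco1 was at 0.01. Rescaled without the mitochondrial genome Hk1 was at 0.31, Aco1 at 0.20, Dlat at -0.06 and Idh3b at -0.04.

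The 4 knockout comparisons within a diabetes state and treatment gave 0 member calls and 0 to 2 members at an unadjusted p under 0.05 (beside 3.1% to 6.94% of all genes), where 0.0195% (nondiabetic on vehicle), 0.0259% (Akita on vehicle), 0.0324% (nondiabetic on dapagliflozin) and 0.0195% (Akita on dapagliflozin) of all genes passed. Blocking both transporters in Akita mice (knockout with dapagliflozin against wild type on vehicle) gave 0 member calls as well, with 2 members at an unadjusted p under 0.05 beside 5.01% of all genes, where 0.0324% of all genes passed. The Eno1 difference there was -0.34 (SE 0.15, unadjusted p = 0.0324, adjusted p = 0.971).

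Whether the knockout changed the diabetes difference was tested as an interaction, and 0 members passed, as 0% of all genes did, and 0 had an unadjusted p under 0.05, beside 3.33% of all genes. Pfkp (-0.41, SE 0.28), Pgam1 (-0.22, SE 0.17), Dlat (0.24, SE 0.17) and Ldhd (0.13, SE 0.21) had the smallest p each way, with an adjusted p of 1 after rounding. Without the 3 outlying libraries Pgam1 was at -0.13, and leaving out 1 library at a time took Ldhd to between 0.04 and 0.21. The Eno1 interval ran from -0.46 to 0.16, so a change of the diabetes difference of that size cannot be told from none.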

How the data were processed

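RNA was taken from laser-captured S3 tubules with a PicoPure kit and made into libraries from 0.5 ng with a SMARTer stranded total RNA kit, per the labels' protocols. The deposited table holds log10 values of TPM on GRCm38, which the authors computed; the heading in the file says that outliers were left out. The aligner, annotation and read numbers were not given in the sources used here. The depth behind each value is therefore unknown. There are 52 columns for 54 labelled samples; Akita wild-type dapagliflozin replicate 2 and semaglutide replicate 1 have none and were not analysed here. The log10 values were raised to TPM here, with 0 for blank cells (7.02%). Sums over a library ran from 984400 to 2254000 TPM, and 51 of 52 exceeded the nominal 1000000.

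For 15424 genes whose mean TPM was 1 or more, limma 3.58.1 fitted log2(TPM + 1) by group, 9 in all (R 4.3.3, robust eBayes with a trend), with 7 main comparisons and 13 between single groups, Benjamini-Hochberg adjustment over all genes and a threshold of 0.05. The script was tested on simulated data. Members were named by rule: any that passed in a main comparison, the top 2 by p in either direction, and the highest of each role. Members given beyond these were chosen after their values were seen. Up to 3 called genes of the other lists were named per comparison, and a result that would fall under this rule is not reported here. The members, lists and tests were chosen with earlier results of these data known. Gene positions came from GENCODE vM21 and promoters from RefSeq (35 of 36 members matched). Replicates were numbered in the order of the labels. Alternatives were another pseudocount (0.1), no filter, other scalings, array weights, covariates, fits of only the groups compared and each library left out; 3 were added after the data were seen (without the 3 outlying libraries, the sum of TPM, and a score of S1 and S2 markers).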

Additional observations from a re-analysis of the deposited data

Results flagged for a closer look

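Among the 18 named members in 9 groups (162 sets of libraries), 12 held a single library that stood far from the rest of its group. A library was counted where its gap to the nearest other library, divided by the range of the group, was above Dixon's 95% critical value. By the definition of that value chance gives about 1 in 20 such sets, and 7.41% were seen. Hk1 was at 183.9 TPM in nondiabetic wild-type vehicle replicate 2, where the next was 79.4, and at 215.2 TPM in nondiabetic knockout dapagliflozin replicate 3, where the next was 53.3. The latter library was also far above its group for Aldoa (770.2 TPM, next 448.7) and Pfkp (90.6 TPM, next 42.7). Both are among the 3 libraries that lay farthest out on the first component, and their scores of other cell types were 3.74 and 3.43.

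High single values were also found for Dlat in nondiabetic wild-type dapagliflozin replicate 6 (90.03 TPM) and Akita wild-type semaglutide replicate 5 (61.0 TPM), Dlst in Akita knockout vehicle replicate 5 (364.1 TPM), Gapdh in nondiabetic knockout vehicle replicate 6 (999.3 TPM), Pfkm in Akita knockout vehicle replicate 3 (34.8 TPM) and Pgam1 in Akita wild-type dapagliflozin replicate 3 (196.6 TPM). Aco1 was low in Akita wild-type dapagliflozin replicate 4 (148.1 TPM) and Akita knockout dapagliflozin replicate 4 (118.9 TPM).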

How the results depend on the processing

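No paired analysis was possible because no number in the labels ties a sample of one group to a sample of another. The count of members that passed for averaged diabetes was 1 and became 0 under 9 of 12 alternatives: no filter, median-ratio scaling, rescaling without the mitochondrial genome, array weights, the score of other cell types, the percent of mitochondrial rRNA or the sum of TPM as a covariate, only the groups compared, and without the 3 outlying libraries. It ran from 0 to 1 as each library was left out (0 in 31 of 47). The count for untreated wild-type mice was 0 and became 1 (Eno1) with the library number (adjusted p = 0.0497) or the S1 and S2 score (adjusted p = 0.0415) as a covariate. It ran from 0 to 1 as each of 12 libraries was left out, and was 1 without nondiabetic wild-type vehicle replicate 4 (adjusted p = 0.0481) or Akita wild-type vehicle replicate 2 (adjusted p = 0.0420). The counts of the other 5 main comparisons and of the 13 between single groups were 0 in every alternative run. Of the named values, Ldhd for averaged diabetes changed sign, from -0.04 to 0.0308 (SE 0.09) with the library number as a covariate; the cause was not tested. Median-ratio scaling left the members' medians for diabetes, knockout and semaglutide on the same side of 0. Read depth is unknown, so it cannot be said which differences counting noise would hide.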
